A study of Mus musculus with 6 samples.

Results

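The 8 genes described here, Impg1, Impg2, Prph2, Rom1, Rp1, Prom1, Cdhr1 and Fscn2, encode proteins that build the light-sensing outer segment of rods and cones or the matrix around it. They were chosen by name, and are 8 of the 19124 gene symbols of the deposited table. RNA came from cells sorted for CD31, a surface protein of endothelium, from retinas of C57BL/6 mouse pups at postnatal day 7. The 3 KO pups had the genotype Pdgf{beta}CreERT2pos Rnf20p/p, in which a tamoxifen-inducible recombinase known to be active in retinal endothelium can delete Rnf20. The 3 Ctrl pups were Pdgf{beta}CreERT2neg Rnf20p/p, with the same Rnf20p/p alleles and no recombinase. All 6 pups received 75 µg of Z-4-HO-Tamoxifen a day from P1 to P4, and each library came from a different pup. Rnf20, the targeted gene, encodes a ubiquitin ligase for histone H2B. The labels call the sorted cells EC.

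An outer segment is a modified cilium packed with membrane discs. New discs form at its base, a rim of tetraspanin proteins holds each disc in shape, a microtubule axoneme keeps the stack straight, and a proteoglycan matrix fills the space between the photoreceptors and the pigment epithelium. In the mouse, outer segments begin to form and lengthen in the weeks after birth. Inherited defects in these genes are known causes of retinal or macular degeneration in people or mice.

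The libraries held 14581701 to 30692948 counts with 1 entry per gene. Rnf20 was at 39.1, 31.0 and 31.7 CPM (counts scaled to library size, here with TMM, which assumes that most genes do not change) in KO 1, 2 and 3, against 47.9, 57.1 and 56.8 CPM in Ctrl 1, 2 and 3. The groups did not overlap for Rnf20, and the difference did not pass the test used throughout (edgeR quasi-likelihood, adjusted p = 0.101). Adjusted p-values are Benjamini-Hochberg values over 16217 tested genes, with a two-sided threshold of 0.05.

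The sorted cells carried endothelial RNA and photoreceptor RNA in both groups. The 15 endothelial markers summed to between 11428 and 15631 CPM in KO libraries and between 3708 and 5657 CPM in Ctrl libraries, and 10 of them rose. The 15 rod phototransduction genes summed to between 3600 and 17422 CPM in KO libraries and between 14162 and 25747 CPM in Ctrl libraries, and 0 of these markers were at 0 in any library. In bulk RNA, fewer photoreceptors in a sort and less RNA per photoreceptor cannot be told apart. The part of this photoreceptor content in the changes described next was not tested, except by the scaling to rod genes given further on.

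Since Impg1 and Impg2 encode partners in the same matrix and changed alike, and Prph2 and Rom1 encode partners in the disc rim and had levels that overlapped between groups, the 250 bases before the start of a RefSeq transcript of each are shown. The sequences are RefSeq's on GRCm38.p6. For Prph2 and Rom1 the window lies just before the gene interval given below, whereas the intervals of Impg1 and Impg2, which cover all transcripts of the gene, reach over most of the Impg1 window and the whole Impg2 window. The windows are chr9:80465439-80465688 on the minus strand for Impg1, chr16:56204063-56204312 on the plus strand for Impg2, chr17:46910228-46910477 on the plus strand for Prph2 and chr19:8929357-8929606 on the minus strand for Rom1. Capitals mark TAATC or its reverse complement GATTA, the core bound by the photoreceptor homeodomain factors Crx and Otx2.
Impg1: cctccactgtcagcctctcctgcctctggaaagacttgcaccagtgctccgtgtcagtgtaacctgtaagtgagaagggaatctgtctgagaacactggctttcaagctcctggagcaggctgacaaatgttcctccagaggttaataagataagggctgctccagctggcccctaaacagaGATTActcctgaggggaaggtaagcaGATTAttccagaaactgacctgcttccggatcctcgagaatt
Impg2: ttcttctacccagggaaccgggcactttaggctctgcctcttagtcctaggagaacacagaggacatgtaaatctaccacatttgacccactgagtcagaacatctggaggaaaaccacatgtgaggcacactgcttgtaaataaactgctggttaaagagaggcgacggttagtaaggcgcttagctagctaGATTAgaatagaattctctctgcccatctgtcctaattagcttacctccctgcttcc
Prph2: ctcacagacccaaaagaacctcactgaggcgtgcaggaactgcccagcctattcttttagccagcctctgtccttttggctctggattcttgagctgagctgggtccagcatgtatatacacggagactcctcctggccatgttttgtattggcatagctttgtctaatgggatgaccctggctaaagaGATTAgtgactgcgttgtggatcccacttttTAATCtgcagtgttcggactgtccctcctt
Rom1: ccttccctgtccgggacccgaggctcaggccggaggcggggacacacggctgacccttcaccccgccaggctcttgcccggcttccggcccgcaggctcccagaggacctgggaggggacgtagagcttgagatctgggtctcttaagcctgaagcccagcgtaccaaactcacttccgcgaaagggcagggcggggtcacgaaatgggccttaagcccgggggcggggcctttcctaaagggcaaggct

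The core stands 2 times in the Impg1 window, 1 time in that of Impg2, 2 times in that of Prph2 and 0 times in that of Rom1. The match nearest to that transcript start ends 38 bases before it in Impg1, 53 in Impg2 and 26 in Prph2. The table gave windows for 7 of the 8 genes, with 2 windows for Prom1, and the core occurred in 4 of these 8 windows. Beyond the windows shown, it stood 1 time in the Prom1 window chr5:44094769-44095018. It stood 0 times in the other Prom1 window (chr5:44101737-44101986) and in those of Cdhr1 and Fscn2. Of 32851 promoter windows of the same length, 19.8% hold the core. The longer form TAATCC (or GGATTA), which contains the core, and the half-site TGCTGA (or TCAGCA) of the rod factor Nrl occurred in 0 of the 8 windows, against 6.25% and 16.1% of all windows. TAATC was searched after TAATCC had given no match. A match describes the letters only and is not a measured binding site.

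Of the 8 genes, 5 fell in KO and 0 rose, and the other 3 did not pass the test. Among all tested genes 4.44% were called lower and 5.85% higher. The genes called lower were Impg1, Impg2, Rp1, Prom1 and Cdhr1, each of which was lower in every KO library than in every Ctrl library. This separation held for 18.9% of all tested genes in that direction. The median log2 fold change of KO over Ctrl was −1.80 over the 8 genes and 0.03 over all tested genes. The estimates of Prph2, Rom1 and Fscn2 were also negative, but their KO libraries spread over 5.42- to 5.98-fold. Without Ctrl 1, Ctrl 2, Ctrl 3 or KO 2, 0 of the 8 genes and 0 of all genes passed edgeR's test, while the same 5 kept an unadjusted p below 0.05. Without KO 1 or KO 3 the count was again 5, and it was 0 with libraries scaled to equal rod genes. All 8 genes had an unadjusted p below 0.05 without KO 3. In that fit Prph2, Rom1 and Fscn2 were at −1.50, −1.17 and −1.54, and did not pass (edgeR quasi-likelihood, adjusted p = 0.108, 0.138 and 0.138).

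**Figure D1:**
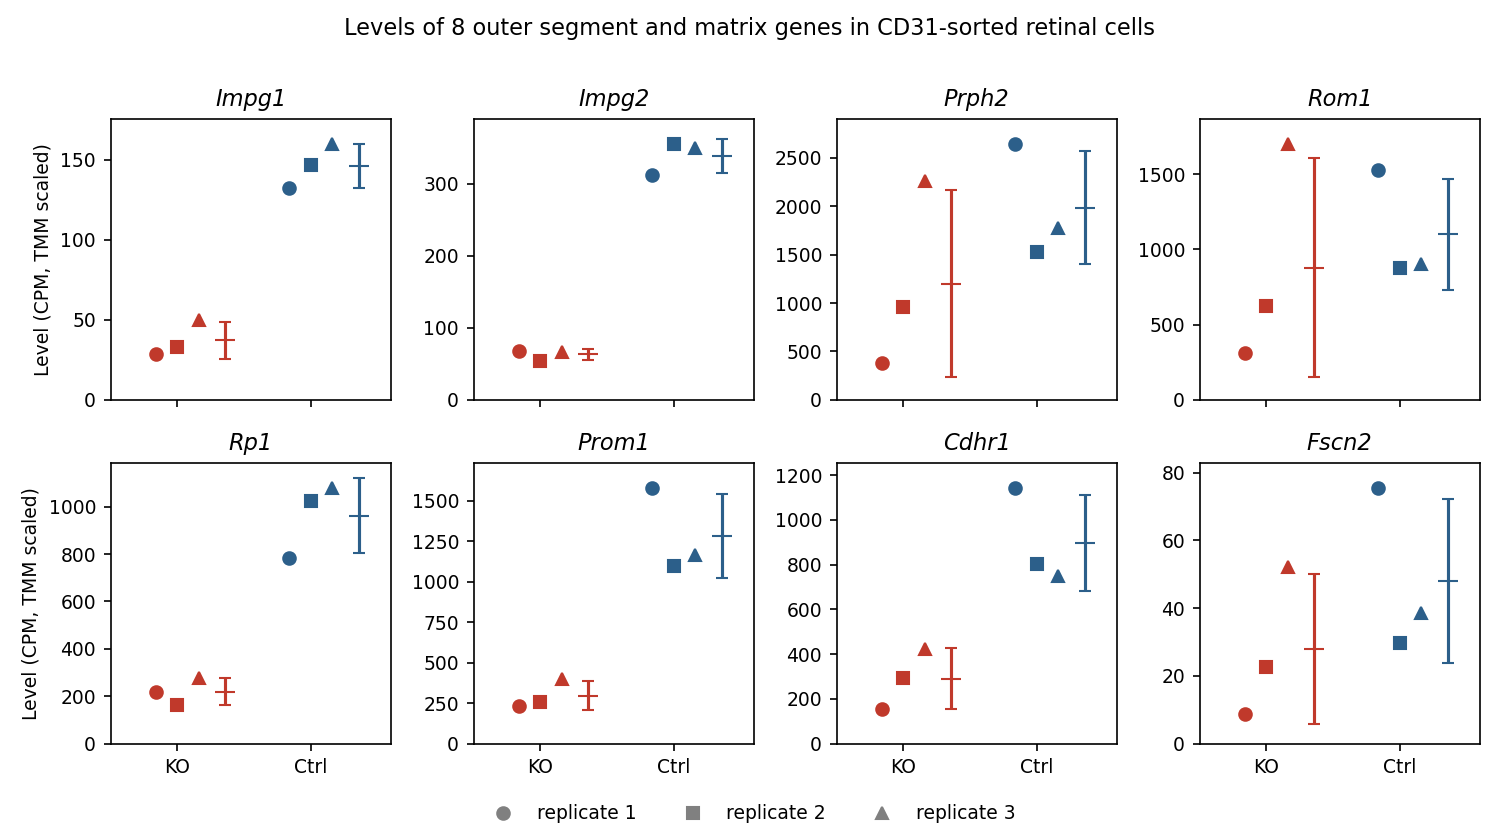
Level of each gene in CPM (TMM scaled, linear axis from 0) in the 3 KO libraries (red) and the 3 Ctrl libraries (blue), with symbols for replicates and bars for the mean ± SD. Impg1, Impg2, Rp1, Prom1 and Cdhr1 did not overlap between groups, while for Prph2, Rom1 and Fscn2 the KO 3 library lay among or above the Ctrl libraries.

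The matrix genes fell in every KO library. Impg2 encodes a membrane-bound proteoglycan of the interphotoreceptor matrix (chromosome 16, 56203839 to 56273753, GRCm38.p6). It was at 68.4, 53.8 and 67.1 CPM in KO 1, 2 and 3, against 312, 355 and 350 CPM in Ctrl 1, 2 and 3. The KO libraries lay within 1.27-fold of each other and the Ctrl libraries within 1.14-fold, and the groups were far apart. The mean was 63.1 ± 8.05 CPM in KO and 339 ± 23.5 CPM in Ctrl (SD, n = 3 each), a log2 fold change of −2.43 (SE 0.234, edgeR quasi-likelihood, adjusted p = 0.0206). Only 0.271% of tested genes had a more negative estimate.

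Impg1 encodes the secreted counterpart of Impg2 in the same matrix (chromosome 9, 80312773 to 80465654). It was at 28.4, 33.0 and 50.0 CPM in KO 1, 2 and 3, against 132, 147 and 160 CPM in Ctrl 1, 2 and 3. The highest KO library was thus well under the lowest Ctrl library. It was 3.93-fold lower in KO, a log2 fold change of −1.98 (SE 0.284, edgeR quasi-likelihood, adjusted p = 0.0211).

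The disc rim genes behaved differently among the KO libraries. Prph2 encodes peripherin-2, the tetraspanin that curves the disc edge (chromosome 17, 46910478 to 46924933). It was at 378, 960 and 2261 CPM in KO 1, 2 and 3, against 2641, 1530 and 1779 CPM in Ctrl 1, 2 and 3. KO 1 and KO 2 were below every Ctrl library, while KO 3 was inside the Ctrl range. The log2 fold change of −0.73 (SE 0.577) did not pass (edgeR quasi-likelihood, adjusted p = 0.428).

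Rom1 encodes the tetraspanin that joins Prph2 in rim complexes (chromosome 19, 8927382 to 8929356). It was at 314, 623 and 1700 CPM in KO 1, 2 and 3, against 1528, 875 and 901 CPM in Ctrl 1, 2 and 3. KO 1 was the lowest of all 6 libraries and KO 3 the highest. The log2 fold change was −0.33 (SE 0.571, edgeR quasi-likelihood, adjusted p = 0.734), and without KO 1 its sign turned, to 0.13. For Prph2 and Rom1, KO 3 was 5.98-fold and 5.42-fold above KO 1, which for Impg2 it was not (0.981-fold).

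Because Prph2 and Rom1 proteins assemble together, the ratio of Rom1 to Prph2 CPM was taken in each library. It was 0.829, 0.649 and 0.752 in KO 1, 2 and 3, against 0.579, 0.572 and 0.507 in Ctrl 1, 2 and 3. Every KO library was above every Ctrl library, although neither gene alone separated the groups. An exact two-sided permutation test of this ratio gave p = 0.1, as low as 3 against 3 libraries can reach, and 0.3 after adjustment over the 3 ratios computed. The ratio of Impg1 to Impg2 was 0.415, 0.614 and 0.746 in KO 1, 2 and 3, against 0.423, 0.413 and 0.456 in Ctrl 1, 2 and 3, and overlapped between groups (exact permutation p = 0.3). The ratio of Cdhr1 to Prom1 was 0.665, 1.14 and 1.06 in KO 1, 2 and 3, against 0.724, 0.729 and 0.642 in Ctrl 1, 2 and 3, and overlapped too (exact permutation p = 0.3). The pairs for these ratios were picked after the values were known.

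Rp1, which encodes a microtubule-binding protein of the photoreceptor axoneme, fell as the matrix genes did (chromosome 1, 4115673 to 4409266). It was at 216, 164 and 277 CPM in KO 1, 2 and 3, against 782, 1024 and 1078 CPM in Ctrl 1, 2 and 3. No KO library came near the Ctrl range. Its log2 fold change was −2.13 (SE 0.290, edgeR quasi-likelihood, adjusted p = 0.0211).

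The genes for proteins of newly forming discs fell as well. Prom1 encodes prominin-1, a membrane protein of the disc evaginations at the outer segment base, which other epithelial and progenitor cells also make (chromosome 5, 43993621 to 44102047). It was at 233, 259 and 400 CPM in KO 1, 2 and 3, against 1578, 1098 and 1168 CPM in Ctrl 1, 2 and 3. The highest KO library was far below the lowest Ctrl library. The log2 fold change was −2.11 (SE 0.308, edgeR quasi-likelihood, adjusted p = 0.0211).

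Cdhr1 encodes a photoreceptor cadherin located at the same site and known to bind prominin-1 (chromosome 14, 37077849 to 37098347). It was at 155, 295 and 424 CPM in KO 1, 2 and 3, against 1142, 801 and 749 CPM in Ctrl 1, 2 and 3. The groups were apart, with a wider spread in KO (2.74-fold between KO 3 and KO 1) than for the other 4 genes that fell. This gave a log2 fold change of −1.62 (SE 0.392, edgeR quasi-likelihood, adjusted p = 0.0404).

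Fscn2 encodes fascin-2, an actin-bundling protein of photoreceptors and inner ear hair cells (chromosome 11, 120360165 to 120368173). It was at 8.90, 22.5 and 52.3 CPM in KO 1, 2 and 3, against 75.5, 29.8 and 38.6 CPM in Ctrl 1, 2 and 3. Only KO 3 reached the Ctrl range. Its log2 fold change of −0.78 (SE 0.619) did not pass (edgeR quasi-likelihood, adjusted p = 0.426). It had the fewest reads of the 8 genes, from 227 to 2208 counts per library.

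In the authors' deposited table, which used DESeq2, the log2 fold changes of KO over Ctrl were −2.34 for Impg2, −2.05 for Rp1, −2.02 for Prom1, −1.89 for Impg1 and −1.53 for Cdhr1. Their adjusted p in the authors' deposited table ran from 8.94e-17 for Impg2 to 0.00291 for Cdhr1. Prph2, Rom1 and Fscn2 had adjusted p of 0.446, 0.804 and 0.439 in the authors' deposited table.

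Set against the mean of the Ctrl libraries on a log2(CPM + 1) scale, the KO libraries differed in how uniform the 8 genes were. In KO 1 all 8 lay below it by similar amounts, from −2.50 for Cdhr1 to −1.76 for Rom1. In KO 3 they ran from −2.32 for Impg2 to 0.68 for Rom1. The mean of the rod genes in the same libraries was −2.07 in KO 1, −1.20 in KO 2 and −0.12 in KO 3, and that of the endothelial markers was 1.27, 1.41 and 0.96. Prph2, Rom1 and Fscn2 ran together, at −2.35 to −1.76 in KO 1, −1.01 to −0.77 in KO 2 and 0.23 to 0.68 in KO 3, beside the rod mean. Impg2 was at −2.29, −2.63 and −2.32 in the same libraries.

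**Figure D2:**
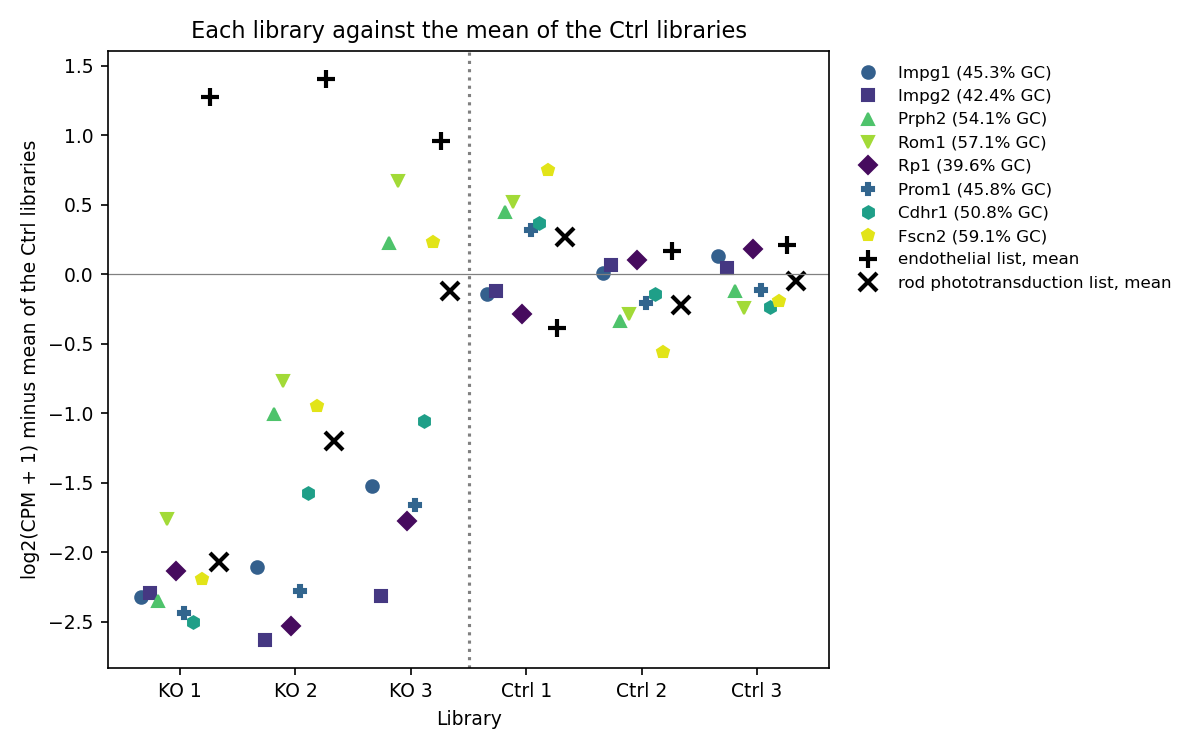
Level of each gene in each library as log2(CPM + 1) minus its mean over the 3 Ctrl libraries, coloured by transcript GC content from low (dark) to high (yellow), with the means of the rod gene list (crosses) and the endothelial list (plus signs). In KO 1 all 8 genes lie between −2.50 and −1.76, and in KO 3 they spread from −2.32 to 0.68.

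The root-mean-square difference between centred log2(CPM + 1) profiles over the 6 libraries measured how alike the genes were. Among Prph2, Rom1 and Fscn2 it was 0.166 to 0.246, and among Impg1, Impg2, Rp1 and Prom1 it was 0.211 to 0.352. Between these sets it was 0.760 to 1.19. Cdhr1 lay between them, at 0.325 to 0.630 from the second set and 0.480 to 0.638 from the first. The sets were formed after the values were seen, and no test was made of them.

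The genes outside the 8 with the closest profiles were sought among 11831 genes with a mean of at least 5 CPM. Impg2 was closest to Cngb3, a subunit of the cone channel (difference 0.222), which was at 13.6, 6.05 and 11.5 CPM in KO 1, 2 and 3, against 49.0, 63.3 and 63.9 CPM in Ctrl 1, 2 and 3. Impg1 was closest to Rgs22 (0.0633), Rp1 to Ppp1r42 (0.116), Prom1 to the fatty acid elongase gene Elovl2 (0.123) and Cdhr1 to the sodium pump subunit gene Atp1b2 (0.0863). Their log2 fold changes were −2.50 for Cngb3, −2.05 for Rgs22, −2.26 for Ppp1r42, −2.21 for Elovl2 and −1.55 for Atp1b2. Prph2 was closest to the small heat shock gene Hspb6 (0.0485), Rom1 to the protease inhibitor gene Spint2 (0.0997) and Fscn2 to the kinesin gene Kif19a (0.144). These had log2 fold changes of −0.77, −0.39 and −0.73. Since all of these genes were picked for their likeness over the same 6 libraries, the choice fixed that their fold changes resemble those of the 8, and the values are a description only.

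The 5 genes that fell and the 3 that did not pass differed in transcript GC content and genomic span. Transcript GC was 39.6% for Rp1, 42.4% for Impg2, 45.3% for Impg1, 45.8% for Prom1 and 50.8% for Cdhr1, against 54.1% for Prph2, 57.1% for Rom1 and 59.1% for Fscn2. Their entries spanned 118, 69.4, 152, 108 and 20.5 kb on the genome, against 14.4, 1.97 and 6.64 kb. Across the 8 genes, Spearman's correlation of the log2 fold change was 0.88 with GC and −0.76 with span, a description over genes measured in the same libraries. The ratio of KO 3 to KO 1, both of the same genotype, had a Spearman correlation of 0.88 with GC as well.

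Fold changes followed GC outside the 8 genes too. Across 15803 tested genes with a GC value, the Spearman correlation with the log2 fold change was 0.39 with GC and −0.21 with span. Across 64 other photoreceptor genes (the rod, cone, transcription factor, outer segment and cilium, and secreted protein lists below) it was 0.67 with GC and −0.43 with span. The median log2 fold change of all tested genes was −0.52 at up to 44% GC and 0.55 above 56% GC. For the 64 photoreceptor genes it was −1.80 and −0.65 in the same classes, so they lay below the median of all genes at either end. The part of GC content in the difference among the 8 genes was not tested beyond the offsets given next.

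**Figure D3:**
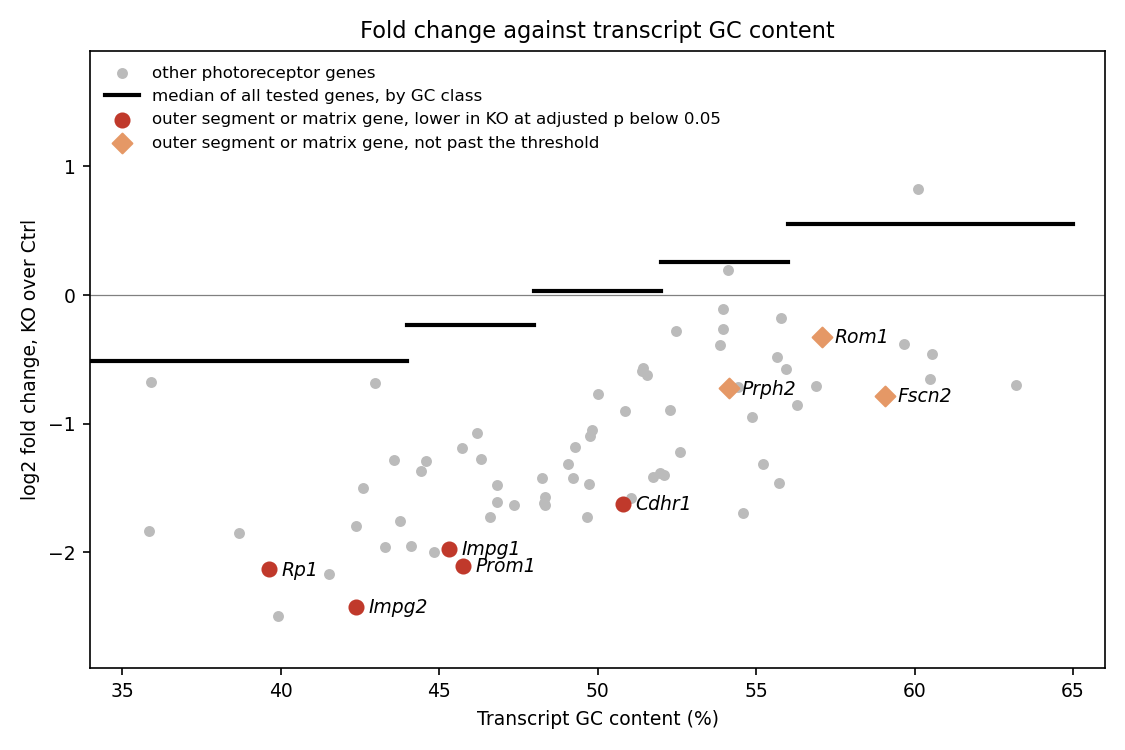
Log2 fold change of KO over Ctrl against GC content of the longest transcript for the 8 genes (red circles passed the threshold, orange diamonds did not), 64 other photoreceptor genes (grey) and the median of all tested genes in 5 GC classes (black lines). The 8 genes run from −2.43 for Impg2 at 42.4% GC to −0.33 for Rom1 at 57.1% GC.

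With offsets that remove each library's dependence on GC, the 8 estimates drew closer. They ran from −1.92 for Impg2 to −0.86 for Rom1, and Impg1, Impg2, Rp1, Prom1 and Cdhr1 still passed (edgeR quasi-likelihood, adjusted p from 0.0166 to 0.0452). Rp1 moved the most of these 5, to −1.34. Fscn2, Prph2 and Rom1 moved to −1.42, −1.11 and −0.86 and did not pass (edgeR quasi-likelihood, adjusted p = 0.0803, 0.152 and 0.217). Over all 15 alternatives, adjusted p ran from 1.79e-18 to 0.201 for Impg2, 3.60e-09 to 0.259 for Rp1, 6.31e-08 to 0.197 for Prom1, 1.89e-07 to 0.265 for Impg1 and 0.00173 to 0.377 for Cdhr1. It ran from 0.0316 to 0.879 for Fscn2, 0.0306 to 0.834 for Prph2 and 0.0719 to 0.991 for Rom1.

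Scaling the libraries to equal rod phototransduction genes asked whether the 8 genes differed relative to rod RNA. It moved the median of all genes to 1.39. On this scale Impg2 was at −1.06 (SE 0.618), Prom1 at −0.89 (SE 0.511), Rp1 at −0.87 (SE 0.586), Impg1 at −0.81 (SE 0.555) and Cdhr1 at −0.55 (SE 0.482), and none of the 5 passed (edgeR quasi-likelihood, adjusted p from 0.197 to 0.377). Prph2, Fscn2 and Rom1 had positive estimates of 0.12, 0.11 and 0.53, also short of the threshold. Scaled this way, Impg2 was at 199, 83.9 and 49.0 units in KO 1, 2 and 3, against 173, 278 and 242 units in Ctrl 1, 2 and 3, so that KO 1 lay inside the Ctrl range. Groups did not overlap on this scale for 3 of the 8 genes, 2 lower and 1 higher, as for 0.752% of all tested genes in the lower and 38.5% in the higher direction. Prom1 was lower in each KO library, at 678, 404 and 292 units in KO 1, 2 and 3, against 877, 860 and 809 units in Ctrl 1, 2 and 3. Cdhr1 was lower too, at 450, 460 and 309 units in KO 1, 2 and 3, against 635, 627 and 519 units in Ctrl 1, 2 and 3. Rom1 was higher in each KO library, at 913, 971 and 1242 units in KO 1, 2 and 3, against 849, 685 and 624 units in Ctrl 1, 2 and 3.

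**Figure D4:**
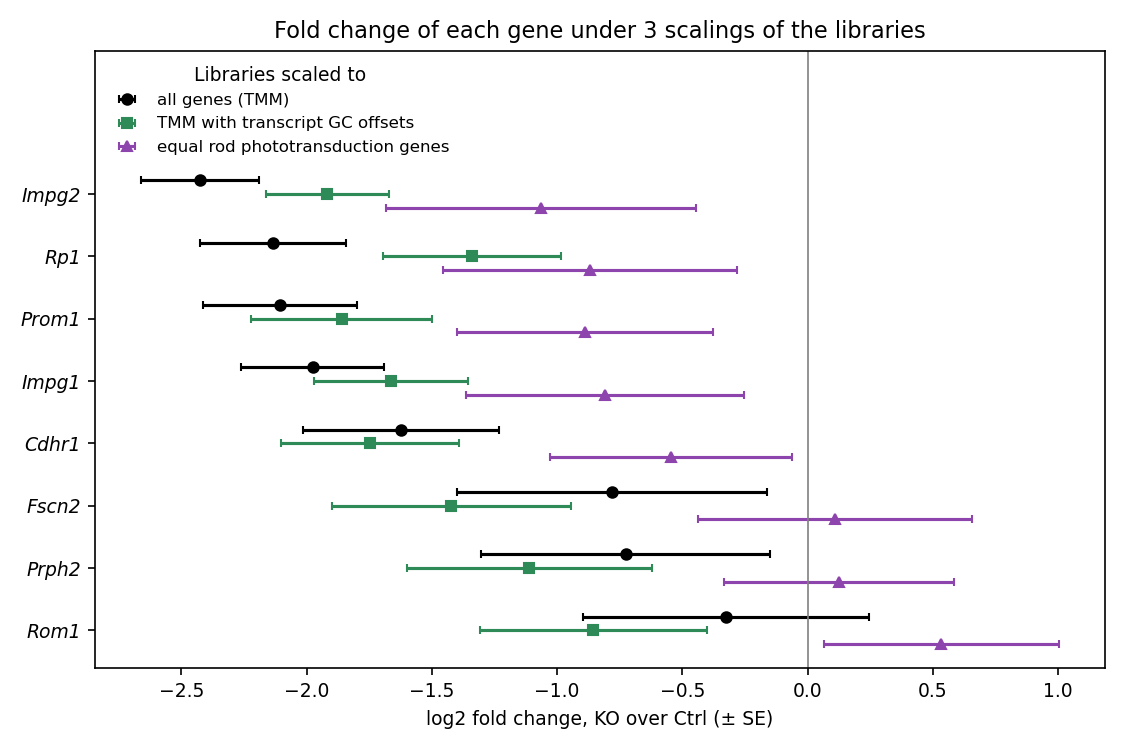
Log2 fold change (KO over Ctrl, bars show the standard error) of each gene, with the libraries scaled over all genes (black), with offsets for transcript GC content (green) and with rod phototransduction genes set equal (purple). Impg2 is at −2.43, −1.92 and −1.06 under these scalings, and Rom1 at −0.33, −0.86 and 0.53.

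Some other genes of the outer segment and its cilium fell too. Of 27 measured, 25 had negative estimates, and the others had positive estimates that did not pass. Every KO library was below every Ctrl library for 17 of the 27 (18.9% of all tested genes), and above every Ctrl library for 1. Of the 27, 10 fell and 0 rose, with a median log2 fold change of −1.19. They included Pcdh15, a cadherin of hair cell tip links that photoreceptors also make (−2.00), Elovl4, which makes very long chain fatty acids (−1.96), Lca5, a cilium protein (−1.76), and Mak, a kinase that sets cilium length (−1.73). Of 3 other genes for proteins that photoreceptors secrete 2 fell, among them Egflam, for pikachurin of the photoreceptor synaptic cleft (−1.39).

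Among 15 rod phototransduction genes 4 fell and 0 rose, with a median of −0.77. These were Gngt1, a transducin subunit (−1.84), Pde6b, a phosphodiesterase subunit (−1.73), the channel subunit Cnga1 (−1.50) and Rgs9, which ends the transducin signal (−1.42). The rod arrestin Sag was at 1499, 3183 and 7134 CPM in KO 1, 2 and 3, against 14089, 6136 and 7310 CPM in Ctrl 1, 2 and 3, and overlapped between groups as Prph2 did. Of 10 cone phototransduction genes 1 fell, Cngb3, with a list median of −1.52. Of 9 photoreceptor transcription factors 3 fell, with a list median of −1.29: Thrb, a receptor for thyroid hormone (−1.95), Otx2 (−1.48) and Prdm1, a repressor of the bipolar fate (−1.28).

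Genes listed as markers of other cells moved in both directions. Which cells in the sort made the RNA of a listed gene was not tested. Of 12 bipolar and amacrine markers 3 fell (median −0.87), Snap25, Vsx1 and Trpm1. Of the 12, 10 had negative estimates, and the others had positive estimates that did not pass. Of 15 endothelial markers 10 rose (median 1.41), such as Ramp2, Egfl7, Erg and Esam. Müller glia and astrocyte markers rose in 3 of 8 (median 1.51, Vim, Glul and Pax2) and 3 others of the 8 had negative estimates that did not pass. Ganglion cell markers rose in 2 of 6 tested (median 1.24, Sncg and Rbpms), and 2 others had negative estimates that did not pass, of which 1 was lower in every KO library. Rises were also called for mural markers in 1 of 8 (median 1.29, Des) and for erythroid markers in 2 of 3 tested (median 2.83, Hba-a1 and Hbb-bs, whose paralogs share reads). Des was low, at 8.86 to 10.4 CPM in KO libraries and 0.888 to 3.85 CPM in Ctrl libraries. The mean log2(CPM + 1) of the mural markers was 4.7, 5.2 and 4.3 in KO 1, 2 and 3. In Ctrl 1, 2 and 3 that mean was 2.5, 3.6 and 4.5, so KO 3 was below Ctrl 3. Of 4 tested pigment epithelium markers and 8 microglial markers 0 passed, with medians of 1.33 and 1.96. These medians did not come from a rise in every KO library. The mean log2(CPM + 1) of the microglial markers was 2.9, 9.1 and 6.6 in KO 1, 2 and 3. It was 6.1, 6.5 and 3.8 in Ctrl 1, 2 and 3, so KO 1 was below every Ctrl library. The pigment epithelium markers summed to between 6.31 and 28.8 CPM in KO libraries. In Ctrl libraries the sum was between 6.56 and 7.55 CPM, so the lowest KO library was below all of these.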

How the data were processed

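The counts were deposited by the authors as whole numbers per RefSeq transcript entry. Per the submitters' processing notes, the build was mm10 and the tools were deepTools, edgeR, DESeq2, STAR and Trimmomatic 0.36, listed without roles. The tool that counted reads is not given in the sources used here. Per the labels, polyadenylated RNA was amplified from very low input as full-length cDNA and read as single 50-base reads, a preparation that does not mark strand. Per the file headers, the authors also gave RPKM values and normalized counts, a signal equal to the count over 1 size factor per library, neither of which was used here. The authors' deposited table further holds a log2 fold change, a Wald score, a p-value and an adjusted p-value. A count column named CTR35 was taken as Ctrl 3, since its name starts as CTR3 and the other columns of the group carry 1 and 2.

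The entry with the longest length stood for each gene (ties by count). Accessions matched RefSeq on GRCm38.p6, the assembly of mm10, for 19043 of 19124 genes. The deposited length is a genomic span (within 2% of it for 80.5% of matched genes), so levels were not compared between genes. In that annotation only 2 pseudogenes outside the table overlap the 8 genes.

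KO was compared with Ctrl in edgeR 4.0.16 (R 4.3.3, TMM, filterByExpr, quasi-likelihood test, no covariate). SE is the size of the log2 fold change over the square root of F. DESeq2 1.42.0 and limma-voom (limma 3.58.1) were alternatives. GC content came from the longest GENCODE transcript (97.5% of tested genes), and GC offsets were loess fits per library. Summaries used scipy 1.17.1, numpy 2.4.6 and pandas 2.3.3 under Python 3.11.15, and plots matplotlib 3.10.9. Named genes were the 8 genes, Rnf20, Sag, up to 4 genes of each list past the threshold with the smallest adjusted p, and the closest profile of each of the 8. Some genes that this rule names are not reported here. The genes, lists and tests were chosen with earlier results of these data known. The p-values measure the spread between pups.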

Additional observations from a re-analysis of the deposited data

How the results depend on the processing

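In 9 of 15 alternatives the number of genes called lower among the 8 kept within 1.5 times of 5, and 0 were called higher in any. It was 0 with rod genes set equal and with the replicate block, and 0 to 5 when single libraries were left out: 0 without Ctrl 1, Ctrl 2, Ctrl 3 or KO 2, and 5 without KO 1 or KO 3. Leaving out a library left 0 to 4927 of all genes called (1668 with all libraries): 0 without Ctrl 1, Ctrl 2, Ctrl 3 or KO 2, where 4005, 3434, 3479 and 3576 genes had an unadjusted p below 0.05, 4927 without KO 1 and 866 without KO 3. All 5 genes that fell had an unadjusted p below 0.05 in each of these fits, and without KO 3 so did Prph2, Rom1 and Fscn2. DESeq2 called 3565 genes, limma-voom 1910 and endothelial scaling 7491. That scaling shifted the median gene to −1.21, called 45.7% of all tested genes lower and left 1.00% of its calls higher (56.8% in the unaltered fit). With GC offsets 44.3% of calls were higher, and with rod genes set equal 99.8%.

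The log2 fold change ranged, with single libraries left out, from −2.49 to −2.30 for Impg2, −2.20 to −1.75 for Impg1, −2.30 to −1.94 for Rp1, −2.33 to −1.90 for Prom1, −1.93 to −1.26 for Cdhr1, −1.50 to −0.24 for Prph2, −1.54 to −0.29 for Fscn2 and −1.17 to 0.13 for Rom1 (0.13 without KO 1). With rod genes set equal it was −1.06, −0.81, −0.87, −0.89 and −0.55 for Impg2, Impg1, Rp1, Prom1 and Cdhr1, and turned positive for Prph2 (0.12), Fscn2 (0.11) and Rom1 (0.53). With endothelial markers set equal Prph2 (−1.92) and Fscn2 (−2.03) also passed. The cause of these shifts was not tested. A replicate block, though the numbers share nothing in the labels and same-numbered libraries deviated with correlations of −0.394, 0.0727 and −0.264, left 1 of all genes called, with −2.43, −2.01, −2.15, −2.13 and −1.70 for Impg2, Impg1, Rp1, Prom1 and Cdhr1, none past the threshold.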

Other observations

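Prom1 and Rp1 have more than 1 transcript entry, and the difference between the longest and the shortest entry gives the counts that lie only in the longer span. For Prom1 that share was 37.0%, 21.3% and 20.0% of the counts in KO 1, 2 and 3, against 18.7%, 25.1% and 25.0% in Ctrl 1, 2 and 3, with KO 1 apart from the other libraries. For Rp1 it was 9.80%, 2.04% and 2.71% in KO 1, 2 and 3, against 3.34%, 6.10% and 5.16% in Ctrl 1, 2 and 3. Most Rp1 counts therefore lay in the shorter entry of 16807 bases, although its longest entry spans 118395 bases. These shares rest on 1390 to 8635 counts per library for Prom1 and 84 to 1512 for Rp1, and no test was made of them.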
